A study of Bos taurus with 8 samples.

Results

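A set of 10 liver-made blood clotting genes was measured in the liver of fetal calves whose dams were fed little or much during gestation. They were taken by name and matched to array probes through the transcript each probe was designed on: prothrombin (F2), factors VII, IX and X (F7, F9 and F10), protein C (PROC), protein S (PROS1), the fibrinogen chains (FGA, FGB and FGG) and antithrombin (SERPINC1). All 10 genes had at least 1 probe on the array, with 23 probes in all, out of 12603 genes and 43637 probes that could be used.

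Clotting runs as a chain of proteases. Tissue factor with F7 activates F10, F9 joins through the intrinsic branch, and activated F10 turns prothrombin into thrombin, which cuts fibrinogen into fibrin. PROC with its cofactor PROS1 and the serpin SERPINC1 restrain the chain. F2, F7, F9, F10, PROC and PROS1 carry glutamates that are carboxylated with the help of vitamin K, and fibrinogen is also an acute phase protein. Hepatocytes are the main source of these plasma proteins.

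Liver was sampled from Japanese Black fetuses at 8.5 months post-conception (day 260 ± 8.3 of gestation). Dams of the low nutrition group (LN) were fed at 60% of what they required and dams of the high nutrition group (HN) at 120%, throughout gestation, and no group fed at the plain requirement was included. Cows were assigned to LN (n = 5) or HN (n = 6), and arrays were run on 4 fetuses per group. By the study's methods these were chosen by body weight, with the light end of LN set against the heavy end of HN. All were conceived with male-sorted semen of 1 sire. LN fetuses are called L5, L6, L8 and L9 and HN fetuses L1, L2, L3 and L10. One general description of the series speaks of pooled RNA, whereas the labels give each of the 8 arrays to 1 fetus, and they are treated here as separate fetuses.

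RNA was labelled with Cy3 and hybridised to Agilent bovine arrays in 1 colour. Slide 1 held the LN arrays and slide 2 the HN arrays, each read in a scan of its own, so the groups cannot be told apart from slide or scan. Between 32635 and 34369 of 43803 spots per array were well above background and 0 were saturated. Precision is limited by the number of arrays. Signals are log2 intensities after quantile normalization, and a gene takes the value of the brightest of its detected probes (detected means that 4 or more of the 8 arrays read the probe well above background). A level of a probe is not comparable with that of another probe, so genes are compared only through their differences between fetuses. All 23 probes of the clotting genes were well above background on all 8 arrays.

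The tissue carried the markers of hepatocytes. Of 10 hepatocyte markers 9 were detected, and their mean log2 signal ran from 17.41 to 17.51 in LN and from 17.35 to 17.69 in HN. Markers of blood cells differed more between groups. The mean over 7 neutrophil markers ran from 8.61 to 9.88 in LN and from 7.73 to 8.94 in HN, and 6 of 7 were higher in LN. MPO (1.32), ELANE (0.91) and CATHL4 (1.78) had no overlap between groups and passed an unadjusted limma p of 0.05, with an adjusted p of 0.760 each. Of all genes, 4.14% had no overlap and 6.05% passed that unadjusted p. Over 6 detected of 9 erythroid markers the mean ran from 8.24 to 12.43 in LN and from 7.15 to 9.40 in HN, with LN fetus L5 highest, and 6 of 6 were higher in LN. Of 7 megakaryocyte and platelet markers 3 were detected, with means from 8.19 to 9.28 in LN and from 7.95 to 8.78 in HN. PF4, platelet factor 4, differed by 1.02 (unadjusted limma p = 0.0172, adjusted p = 0.760, exact permutation p = 0.0571), and its groups overlapped. The other detected platelet markers did not share that difference, with 0.20 for ITGB3 and -0.027 for ITGA2B. The part of these cells in the results was not tested. In bulk liver, fewer cells of a type and less RNA per cell cannot be told apart.

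The clotting genes differed little between LN and HN fetuses. Their log2 differences (LN minus HN) lay between -0.32 for PROC and 0.11 for FGG, with a median of -0.035, against a median of 0.0075 over 10860 genes with a detected probe. The median ran from -0.089 (without L3) to -0.010 (without L10) with single fetuses left out. Of the 10 genes, 8 were lower and 2 higher in LN, where 48.4% of all genes were lower and 51.6% higher. With arrays scaled to their 75th percentile, 6 of the 10 and 54.4% of all genes were lower, so the split of directions is not firm. By limma with Benjamini-Hochberg adjustment over all 33439 detected probes, 0 of 10 passed an adjusted p of 0.05 (0.0% of all genes did), and 0 passed an unadjusted p of 0.05 (6.05% of all genes did). By exact permutation tests, 0 of 10 reached p = 0.05 (lowest 0.0857), and the smallest p that 4 fetuses against 4 allow is 0.0286.

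For no gene of the 10 did the groups separate. The signals of LN and HN overlapped for all 10 genes, where 4.14% of all genes showed no overlap. None of the 10 differed by more than 1.25-fold between the group means, where 16.4% of all genes did. PROC, at a ratio of 0.801, lay just inside that limit. Within groups the brightest probes of the 10 genes varied less than those of all genes, with a median pooled SD of 0.166 against 0.232. Whether the brightness of the probes plays a part in these shares was not tested. The 95% intervals of the difference, from the limma fit, stayed within 2-fold for all 10 genes and within 1.5-fold for 9 of them. By the brightest probe they stayed within 1.25-fold for 1 gene, SERPINC1, whereas the other SERPINC1 probe had an interval of the ratio from 0.674 to 1.54. Small changes were not detectable with this number of fetuses.

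**Figure D1:**
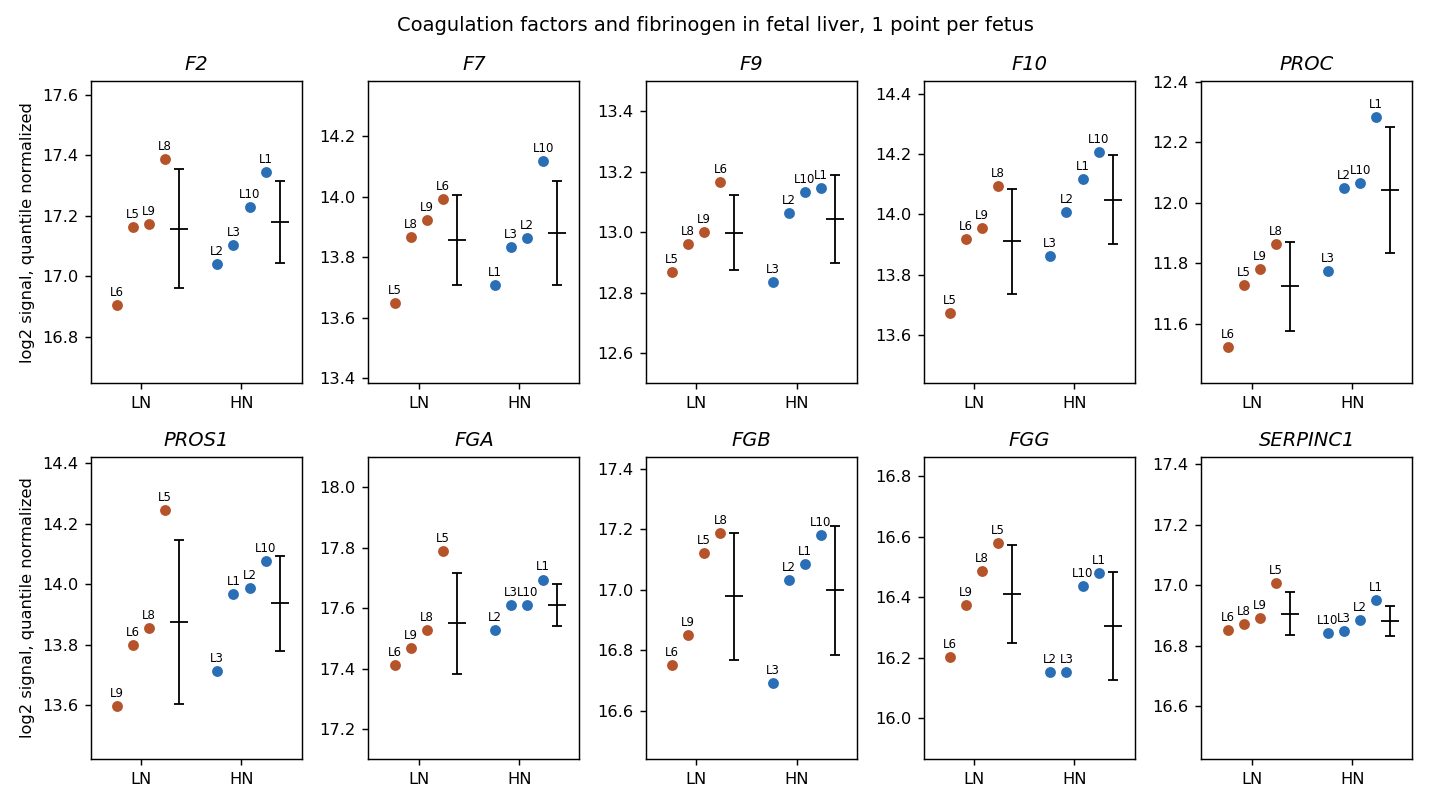
Each panel plots the log2 signal (quantile normalized, brightest probe) of 1 gene, with 1 labelled point per fetus, LN on the left and HN on the right, and the mean ± SD of each group beside the points (n = 4 each). Every panel spans 1 log2 unit, and the LN and HN points overlap in all 10 panels.

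PROC, the zymogen of the protease that inactivates clotting cofactors, had the largest difference of the 10. Its log2 signal was 11.73 in L5, 11.52 in L6, 11.86 in L8 and 11.78 in L9 of the LN group. It was 12.28 in L1, 12.05 in L2, 11.77 in L3 and 12.06 in L10 of the HN group. L3 lay within the LN fetuses and the other HN fetuses lay above all of them. The difference was -0.32 (standard error, SE, 0.14, limma adjusted p = 0.785, exact permutation p = 0.0857), or a ratio of 0.801 of LN to HN with a 95% interval from 0.641 to 1.00.

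The unadjusted limma p of PROC was 0.0507, close to the usual threshold. It ran from 0.0330 to 0.0800 over 7 alternatives of processing, and was at most 0.05 in 6 of them. Without HN fetus L3 the groups did not overlap and the difference was -0.41, and without HN fetus L1 it was -0.24. The lowest adjusted p over 10 genes and 16 alternatives was 0.458. PROC had 1 probe, so no other probe bears on it.

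PROS1, the cofactor of activated PROC, had log2 signals of 14.25 in L5, 13.80 in L6, 13.85 in L8 and 13.60 in L9. In HN they were 13.97 in L1, 13.99 in L2, 13.71 in L3 and 14.08 in L10. L5 was the highest and L9 the lowest of all 8, so LN spanned the whole HN range. The difference was -0.062 (SE 0.16, limma adjusted p = 0.960, exact permutation p = 0.714), and it turned to 0.030 without LN fetus L9.

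SERPINC1, the main inhibitor of thrombin and activated F10, had the least variable brightest probe of the 10 genes and the most variable other probe. The brightest probe ran from 16.85 to 17.01 in LN and from 16.84 to 16.95 in HN, and L5 was the highest of the 8. The difference was 0.024 (SE 0.10, limma adjusted p = 0.977, exact permutation p = 0.571), with a 95% interval of the ratio from 0.868 to 1.19. The pooled SD within groups was 0.061, against a median of 0.232 over all genes with a detected probe.

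The fibrinogen chains are encoded by neighbouring genes, with FGA between FGB and FGG and no other protein-coding gene among them in the ARS-UCD2.0 assembly of cattle. FGA had log2 signals of 17.79 in L5, 17.41 in L6, 17.53 in L8 and 17.47 in L9, and of 17.69 in L1, 17.53 in L2, 17.61 in L3 and 17.61 in L10. L5 stood above every HN fetus and L6 and L9 below every one. The difference was -0.061 (SE 0.12, limma adjusted p = 0.945, exact permutation p = 0.543).

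FGB had log2 signals of 17.12 in L5, 16.75 in L6, 17.19 in L8 and 16.85 in L9, and of 17.09 in L1, 17.03 in L2, 16.69 in L3 and 17.18 in L10. Each group held both high and low fetuses, and L3, L6 and L9 were the lowest. The difference was -0.020 (SE 0.16, limma adjusted p = 0.987, exact permutation p = 0.943), and it was 0.026 with scaling to the 75th percentile.

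FGG was the gene of the 10 with the largest difference towards LN. Its log2 signals were 16.58 in L5, 16.20 in L6, 16.49 in L8 and 16.37 in L9, and 16.48 in L1, 16.15 in L2, 16.15 in L3 and 16.44 in L10. L2 and L3 were the lowest of the 8. The difference was 0.11 (SE 0.14, limma adjusted p = 0.918, exact permutation p = 0.429), with a ratio of 1.08 and a 95% interval from 0.867 to 1.33. The intervals of FGA (0.793 to 1.16) and FGB (0.772 to 1.26) also held 1.

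Among the procoagulant proteases, F10, which forms the prothrombin-cleaving complex with factor V, had the largest difference. It ran from 13.68 in L5 to 14.09 in L8 in LN and from 13.86 in L3 to 14.21 in L10 in HN. L1 and L10 lay above all LN fetuses. The difference was -0.14 (SE 0.13, limma adjusted p = 0.881, exact permutation p = 0.286), and it stayed between -0.20 and -0.061 with each fetus left out in turn. F7, which lies next to F10 in the assembly, ran from 13.65 in L5 to 13.99 in L6 in LN and from 13.71 in L1 to 14.12 in L10 in HN. Its difference was -0.023 (SE 0.13, limma adjusted p = 0.982, exact permutation p = 0.886).

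F9, the factor missing in haemophilia B, ran from 12.87 in L5 to 13.17 in L6 in LN and from 12.83 in L3 to 13.15 in L1 in HN. Its difference was -0.046 (SE 0.12, limma adjusted p = 0.960, exact permutation p = 0.629). F2, the precursor of thrombin, ran from 16.91 in L6 to 17.39 in L8 in LN and from 17.04 in L2 to 17.35 in L1 in HN. The lowest and the highest of the 8 fetuses for F2 were thus both LN. Its difference was -0.023 (SE 0.14, limma adjusted p = 0.982, exact permutation p = 0.857), and it was 0.0090 with scaling to the 75th percentile.

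**Figure D2:**
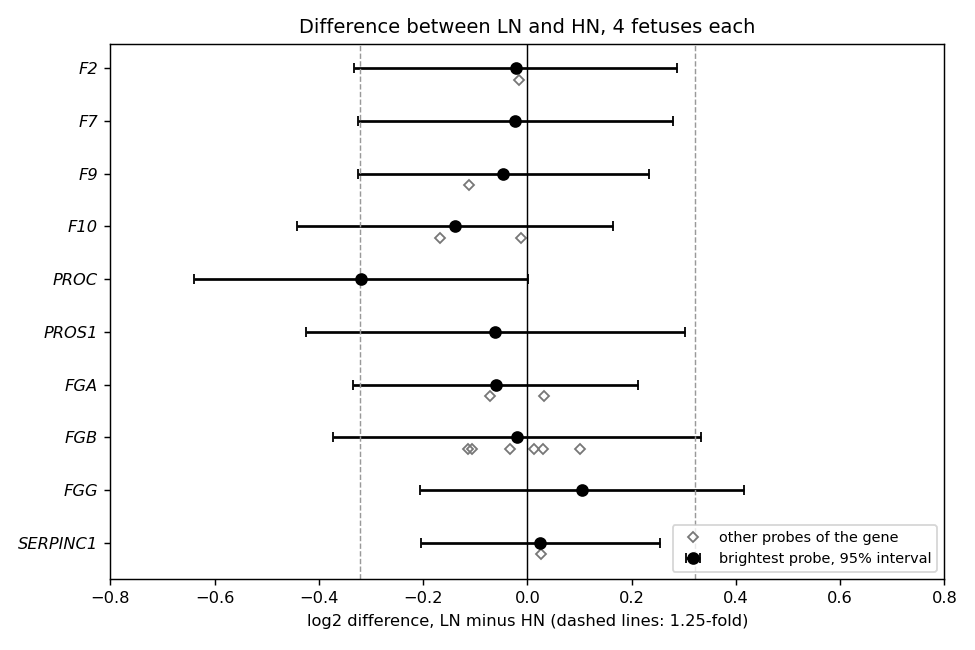
The log2 difference (LN minus HN) of each gene is plotted with its 95% interval from limma (filled points, brightest probe, n = 4 fetuses per group), and open diamonds give the gene's other probes. All intervals include 0 and PROC, at -0.32, lies closest to the dashed line for 1.25-fold.

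The 6 genes with several probes were read by 19 probes in all. Over all 23 probes 16 were lower and 7 higher in LN, with differences between -0.32 and 0.11. Of the 23, 0 reached an unadjusted limma p of 0.05, where 2113 of all 33439 detected probes did. The probes pointed both ways for FGA (2 lower, 1 higher) and FGB (4 lower, 3 higher). The FGB probes ran from -0.11 to 0.10. For F2, F9, F10 and SERPINC1 the probes of a gene pointed the same way. Probes of 1 gene share its transcripts and are not replicates.

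Fetuses differed more in some dimmer probes than in the brightest probe of the same gene. The second SERPINC1 probe was 13.24 in L3, 13.50 in L6 and 13.71 in L9, and between 14.03 and 14.30 in the other 5 fetuses. Its pooled SD within groups was 0.418, against 0.061 for the brightest probe, while its difference between LN and HN was 0.026. The second F2 probe was 13.44 in L3, 13.38 in L6 and 13.74 in L9, and between 13.96 and 14.28 in the others. These fetuses come from both groups, L3 from HN and L6 and L9 from LN.

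L3, L6 and L9 were the 3 lowest fetuses in 10 of 23 probes of the clotting genes (43.5%), 5 of them FGB probes, and in 9.15% of all 33439 detected probes. The pattern is not particular to clotting genes, since it was also seen in 9 of 36 probes of hepatocyte markers, and among the brightest probes of the clotting genes it held in 2 of 10. The 3 fetuses were looked at together because an earlier result of these data over all probes had set them apart. They include both probes just described, 1 probe each of F10 and FGA, and the PROS1 probe. F7, F9, FGG and PROC had no such probe. Before normalization the arrays of L6 and L9 had the lowest median log2 signals, 5.97 and 6.09. L3, at 6.38, lay above L10, at 6.30. What sets these fetuses or their arrays apart was not tested. With L3, L6 and L9 left out together, 4 of 10 genes were lower in LN in place of 8, where 47.8% of all genes were. The median difference of the 10 was then 0.043, and 0 reached an unadjusted limma p of 0.05, where 9.59% of all genes did.

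**Figure D3:**
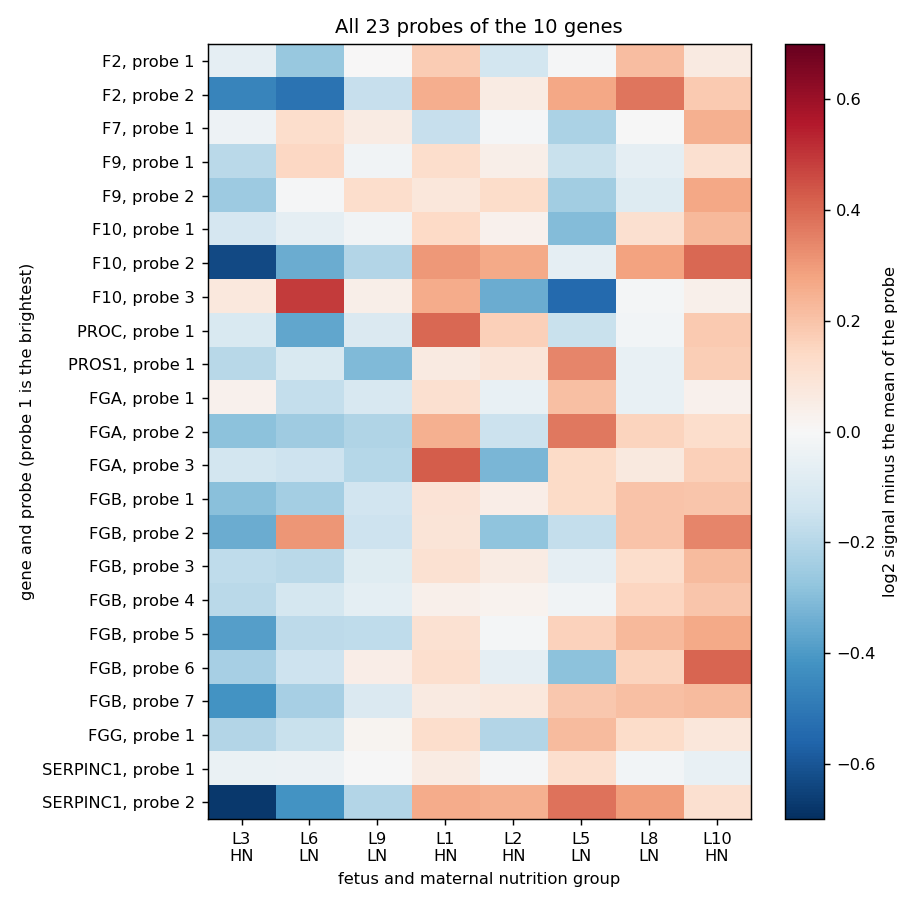
Rows are the 23 probes of the 10 genes, grouped by gene with the brightest probe first, and columns are the 8 fetuses, with the group under each name. The colour is the log2 signal minus the mean of that probe over the fetuses, and L3, L6 and L9, in the left columns, are the 3 lowest in 10 rows.

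The 10 genes did not rise and fall as a unit across fetuses. Over 45 pairs of genes and 8 fetuses, Pearson's r ran from -0.84 to 0.74 with a median of 0.34, and 31 pairs were above 0. After Benjamini-Hochberg adjustment over the pairs, 0 pairs passed an exact permutation p of 0.05, against 5 before adjustment. Those 5 were F7 with SERPINC1 (r = -0.84), FGA with SERPINC1 (0.74), FGB with FGG (0.74), F2 with FGG (0.73) and PROS1 with FGA (0.72).

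FGB and FGG had r = 0.74 (exact permutation p = 0.0419, adjusted p = 0.353; Spearman's rho 0.78, exact permutation p = 0.0301, adjusted p = 0.517). It was 0.43 without the 2 fetuses farthest from the median of FGB, a step that also narrows the range of FGB, and between 0.63 and 0.90 with each fetus left out in turn. Over the 7 FGB probes it ran from 0.33 to 0.76. Within LN alone it was 0.90 and within HN alone 0.72, with 4 fetuses each. The brightest FGA probe had r = 0.59 to FGG (exact permutation p = 0.126, adjusted p = 0.424; rho 0.50, exact permutation p = 0.210, adjusted p = 0.643). With FGB it had r = 0.47 (exact permutation p = 0.242, adjusted p = 0.527; rho 0.36, exact permutation p = 0.379, adjusted p = 0.845). Without the 2 fetuses farthest from the median of FGA these were 0.19 and 0.14. Over the 3 FGA probes, r with FGG ran from 0.59 to 0.90, and over the 21 pairs of FGA and FGB probes it ran from -0.25 to 0.85, so its sign depended on the probes. With single fetuses left out, r of FGA with FGG ran from 0.36 (without L5) to 0.74 (without L3), and with FGB from 0.27 (without L6) to 0.67 (without L3). With scaling to the 75th percentile, r of FGA and FGB was 0.25. Within LN and within HN, r of FGA was 0.87 and 0.75 with FGG, and 0.68 and 0.11 with FGB.

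F7 and SERPINC1 had the strongest relation and it was negative, at r = -0.84 (exact permutation p = 0.00697, adjusted p = 0.314; rho -0.69, exact permutation p = 0.0694, adjusted p = 0.517). It was -0.73 without the 2 fetuses farthest from the median of F7, -0.96 within LN and -0.76 within HN. It depended on the probe, since the other SERPINC1 probe had r = -0.34 with F7. L5 was the lowest fetus for F7 and the highest for SERPINC1. F10 and PROC had r = 0.66 (exact permutation p = 0.0741, adjusted p = 0.353; rho 0.88, exact permutation p = 0.00724, adjusted p = 0.326). Over the 3 probes of F10 it ran from -0.095 to 0.74. With the brightest probe it was 0.74 without the 2 fetuses farthest from the median of F10, and 0.34 within LN and 0.75 within HN. L1 and L10 were above the mean of the 8 fetuses in 9 of 10 genes, and L3 in 1 and L6 in 2.

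**Figure D4:**
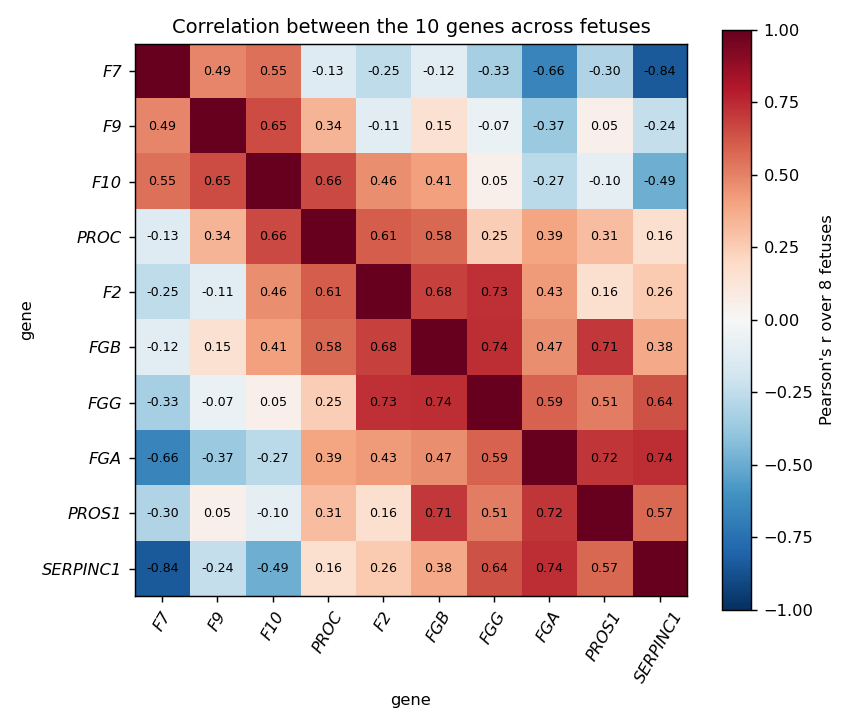
Each cell gives Pearson's r between the log2 signals of 2 of the 10 genes over 8 fetuses (red positive, blue negative). FGB, FGG and F2 form a block above 0.65, and FGA with SERPINC1 (0.74) and PROS1 with FGA (0.72) and FGB (0.71) are about as high. F7 is negative with FGA and SERPINC1, and 0 of 45 pairs pass after adjustment.

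Genes whose pattern over the 8 fetuses was most like the mean of FGA, FGB and FGG had r between 0.93 and 0.96. They were BRCA1 (0.96), TUBB1 (0.95), ECHS1 (0.95), ARPC4 (0.94) and CDHR5 (0.93). Of the other clotting genes, PROS1 had r = 0.74 to that mean, at rank 308 of 10860 genes, and F2 had r = 0.73 at rank 349. SERPINC1 had 0.65, PROC 0.48 and F10 0.13, while F9 (-0.064) and F7 (-0.38, rank 8160) were below 0. ORMDL3 and MIF were among the genes most like the mean of the other 7 clotting genes, both with r = 0.97. The r values of these genes outside the clotting system are among the highest of 10860 values over 8 fetuses and are given as a description.

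The rest of the clotting system was read from 39 further genes, of which 32 had a probe, all of them detected. Of these 32, 15 were lower and 17 higher in LN, and the median of their log2 differences was 0.055. That median ran from 0.0069 (without L6) to 0.078 (without L10) with single fetuses left out, at 0.012 without L9 and 0.013 without L2, and was -0.037 without L3, L6 and L9. By limma, 0 passed an adjusted p of 0.05 (lowest 0.765), and at an unadjusted p of 0.05 the count was 0 lower and 1 higher, where 2.75% and 3.3% of all genes were. With scaling to the 75th percentile these shares of all genes were 4.59% and 2.51%, and of all probes 2182 were lower and 631 higher, against 994 and 1119 in the quantile normalized values. No gene of the 32 lacked overlap between groups, where 4.14% of all genes did. F5, PROZ, GAS6, SERPINA5, VKORC1L1, ADAMTS13 and KNG2 were not analysed here, since no probe was matched to them.

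The gene at an unadjusted p of 0.05 was THBD, thrombomodulin, the endothelial receptor on which thrombin activates PROC. Its log2 signals were 9.31 in L5, 9.66 in L6, 9.15 in L8 and 9.37 in L9, and 8.94 in L1, 9.32 in L2, 8.61 in L3 and 8.58 in L10. L2 lay among the LN fetuses and the other HN fetuses below them. The difference was 0.51 (SE 0.19, limma adjusted p = 0.765, exact permutation p = 0.0857). Over 6 endothelial markers the mean log2 signal ran from 10.60 to 11.04 in LN and from 10.42 to 10.81 in HN, and their part in the THBD difference was not tested.

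Vitamin K is recycled and used in hepatocytes by VKORC1, the target of warfarin, and GGCX, the carboxylase. VKORC1 differed by -0.061 (SE 0.13, limma adjusted p = 0.948, exact permutation p = 0.743) and GGCX by 0.071 (SE 0.19, limma adjusted p = 0.961, exact permutation p = 0.914). Of 5 detected genes of this cycle and of factor secretion, 2 were lower and 3 higher, and the differences lay between -0.14 and 0.20.

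The contact and intrinsic factors were also close between groups. F11 differed by -0.026 (SE 0.16), F12 by 0.10 (SE 0.16) and KNG1, the kininogen from which bradykinin is cut, by -0.057 (SE 0.21), with limma adjusted p between 0.931 and 0.982. F13B, the carrier subunit of the fibrin-crosslinking factor, differed by 0.22 (SE 0.14, limma adjusted p = 0.819, exact permutation p = 0.143). Of the 6 further inhibitors measured, 5 were lower in LN and 1 higher. The higher one was TFPI2, tissue factor pathway inhibitor 2, named after its values were seen, with the difference farthest from 0 among the 32 genes, at 0.62 (SE 0.29, limma adjusted p = 0.787, exact permutation p = 0.114). SERPIND1, heparin cofactor II, differed by -0.11 (SE 0.15).

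In fibrinolysis 2 of 9 genes were lower and 7 higher in LN, with a median of 0.083. At an unadjusted limma p of 0.05 the count was 0, where 6.05% of all genes passed. PLG, the zymogen of plasmin, differed by 0.045 (SE 0.11) and its inhibitor SERPINF2 by 0.083 (SE 0.11). CPB2, which protects fibrin from plasmin, differed by 0.22 (SE 0.18). HRG differed by -0.39 (SE 0.33, limma adjusted p = 0.863, exact permutation p = 0.343), and its SDs of 0.57 in LN and 0.52 in HN exceeded that difference. It was -0.14 without HN fetus L3 and -0.63 without LN fetus L6.

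**Figure D5:**
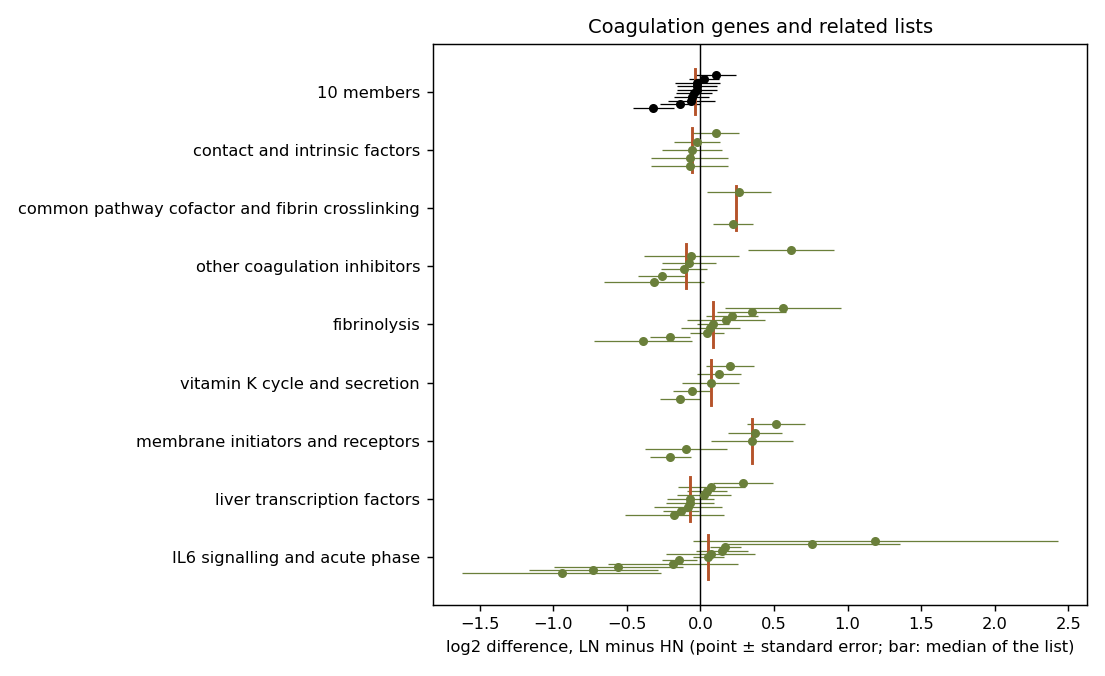
Each point is the log2 difference (LN minus HN) of 1 detected gene with its standard error (SE) from limma, in lines for the 10 clotting genes (labelled 10 members) and 8 related lists, and the vertical bar marks the median of the list. The 10 genes lie between -0.32 and 0.11, and the IL6 signalling and acute phase list spans -0.94 to 1.19.

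Hepatocyte transcription factors and acute phase genes were measured as the background to fibrinogen and factor expression. Of 9 detected liver transcription factors 5 were lower and 4 higher, between -0.18 and 0.29, with 0 at an unadjusted limma p of 0.05 (6.05% of all genes). Of 11 detected genes of IL6 signalling and the acute phase, 5 were lower and 6 higher, with a median of 0.054. At an unadjusted limma p of 0.05 the count was 0, where 6.05% of all genes passed. The median is the difference of ORM1, which read 18.64 in every fetus but L10 (18.42). ORM1 thus says little about direction, and the same holds for that median. The differences of this list ran from -0.94 to 1.19, and its pooled SDs within groups reached 2.11, where those of the 10 clotting genes did not exceed 0.222 for their brightest probes and reached 0.418 for their other probes. JAK1, a kinase of the IL6 receptor, was the gene of this list without overlap between groups, where 4.14% of all genes had none. It ran from 12.33 to 12.60 in LN and from 12.28 to 12.31 in HN, and its difference was 0.17 (SE 0.11, limma adjusted p = 0.823, exact permutation p = 0.0286) at the brightest of 4 probes. With the mean over its probes the difference was 0.033.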

How the data were processed

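Liver RNA of 8 fetuses (4 LN, 4 HN) was measured on 1-colour Agilent bovine arrays. The deposited scanner files hold the intensity of each spot from Agilent Feature Extraction 11.0.1.1, background-subtracted by the authors' scanner software. The authors also deposited a log2 table normalized by quantiles, with 31068 probes, each well above background on all 8 arrays, and it served as an alternative. The methods name no statistical test for the arrays.

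Here log2 processed signals without control spots and spots marked as outliers were averaged per probe and quantile normalized over 43637 probes (16 further probes had no usable spot). A probe counted as detected (33439 probes) if 4 or more of the 8 arrays had it well above background. Transcript accessions were matched to gene symbols in a RefSeq table of assembly ARS-UCD2.0, which gave 26740 probes of 12603 genes, and a gene took its brightest detected probe. The groups were compared in limma 3.58.1 (R 4.3.3) on all detected probes, with Benjamini-Hochberg adjustment, and by exact permutation over 70 divisions of the fetuses (scipy 1.17.1), 2-sided. The limma fit was tested on simulated log2 values with known changes. Alternatives were scaling to the 75th percentile, normexp background (offset 50), the deposited table, other filters, a trended robust eBayes, the mean over probes, and each fetus left out.

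Named genes were the 10 clotting genes, pathway genes listed by name, and any listed gene at an unadjusted p of 0.05 or without overlap between groups. The genes and lists were chosen with earlier results of these data known. Levels were not compared between probes, and no sequence or coordinate is given.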

Additional observations from a re-analysis of the deposited data

Results flagged for a closer look

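Of the named genes, 3 had a fetus far from the other 3 of its group, among 46 groups tested over 23 genes, where chance gives about 2.3. PLG, the zymogen of plasmin, was 17.31 in HN fetus L3 and between 17.56 and 17.57 in the other HN fetuses. F11 was 12.96 in HN fetus L2 and between 13.47 and 13.56 in the others. SERPIND1 was 16.03 in LN fetus L5 and between 16.48 and 16.57 in the others.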

How the results depend on the processing

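With 4 fetuses a group, small differences could not be detected, and slide and scan cannot be told apart from group. No paired analysis was possible because LN and HN fetuses share no replicate number.

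The count of clotting genes at an unadjusted limma p of 0.05 was 1, PROC each time, with normexp background, the deposited log2 table, without a filter on dim probes, with a filter asking for all 8 arrays, and with trended robust eBayes or the mean over probes. In these settings 6.18% to 7.90% of all genes passed. With the mean over probes, 2 of the other coagulation genes passed. Signs changed with scaling to the 75th percentile for F2 (0.0090) and FGB (0.026), and with the mean over probes for KNG1 (0.025). Other differences moved without a change of sign. That scaling gave -0.016 for FGA and 0.073 for SERPINC1, and normexp background gave 0.049 for FGG. The mean over probes gave -0.22 for SERPIND1 and -0.13 for VKORC1.

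With each fetus left out in turn, 0 to 1 clotting genes passed an unadjusted limma p of 0.05 (1 without L8 or L3), 0 to 1 had no overlap (1 without L3), where 3.76% to 7.76% and 5.55% to 9.40% of all genes did, and 0 to 1 were over 1.25-fold apart (1 without L8, L9 or L3). Of the other coagulation genes, 9 to 15 were lower (9 without L5), 0 to 2 passed an unadjusted p (0 without L10, 2 without L1 or L3) and 0 to 1 had no overlap. Over all probes, 0 to 1 passed an adjusted limma p of 0.05 (1 without L6) and 1343 to 2639 an unadjusted one (1343 without L10, against 2113 with all fetuses). Between 0 and 1 pairs of clotting genes passed an adjusted p (1 without L10). Differences ran from -0.099 to 0.061 for F2, -0.081 to 0.056 for F7, -0.12 to -0.0027 for F9, -0.14 to -0.015 for FGA, 0.049 to 0.17 for FGG, -0.19 to 0.030 for PROS1, -0.12 to 0.055 for FGB, -0.0099 to 0.048 for SERPINC1, -0.039 to 0.19 for GGCX, -0.12 to 0.031 for VKORC1, -0.021 to 0.075 for PLG, -0.16 to 0.038 for F11, -0.0052 to 0.16 for F12, -0.18 to 0.061 for KNG1, -0.18 to 0.012 for SERPIND1, 0.044 to 0.13 for SERPINF2 (0.044 without L2) and 0.12 to 0.33 for CPB2 (lowest without L2 or L9, highest without L1).

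Leaving out L3, L6 and L9 together, chosen after seeing the data, left 5 fetuses. Then 4 clotting genes were lower, 3 had no overlap (PROC, F9 and FGG) and 1 was over 1.25-fold apart. Of the other coagulation genes 4 passed an unadjusted p (9.59% of all genes did) and 8 had no overlap, where 31.1% of all genes had no overlap in this comparison of 2 LN with 3 HN fetuses, and 3790 probes passed an unadjusted p. Differences were 0.070 for F2, 0.039 for PROS1, 0.048 for FGA, 0.055 for FGB, -0.22 for GGCX and 0.0095 for F11. Fewer fetuses make absence of overlap easier to reach; the cause of the other changes was not tested.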
